A study of Homo sapiens with 12 samples.

Results

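The genes encoded by the mitochondrial genome were taken as all genes whose chromosome is given as MT in the deposited gene tables, 37 of 58174 genes. They comprise 13 mRNA genes, 2 rRNA genes and 22 tRNA genes, and 9 of the 37 lie on the minus strand. The mitochondrial genome is a small circle that is transcribed from both strands into long precursors. Within these precursors the tRNAs punctuate the mRNAs and rRNAs, and cleavage at the tRNA ends releases the separate transcripts. The mRNAs receive short poly(A) tails, encode core subunits of the respiratory chain and ATP synthase, and are translated by a mitochondrial ribosome built on the 2 rRNAs.

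The libraries came from 2 established glioblastoma lines of human origin, LN229 and U251, 72 hours after reverse transfection. In each line 2 libraries were from cells transfected with XRN2 siRNA (siXRN2), 2 from cells transfected with a control siRNA (siNT) and 2 from mock-transfected cells, 12 in all. Whether replicates came from different cultures is not in the labels, so every p-value below rests on a spread that may be only technical. XRN2 is an exoribonuclease of the nucleus that digests RNA from its 5′ end, and it trails RNA polymerase II at the end of genes. TruSeq RNA v2, the kit in the labels, captures RNA by its poly(A) tail and keeps no strand information. The tRNAs are therefore largely out of reach, and reads from opposite strands at the same positions cannot be told apart.

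The libraries held 4846768 to 7469052 exon reads, and 141697 to 227904 of them lay in mitochondrial mRNAs. XRN2 itself, in CPM (counts per 1e6 exon reads, with library sizes scaled by the trimmed mean of M-values), had 33.5 and 25.6 in the siXRN2 libraries of LN229, against 201 and 242 in siNT and 229 and 235 in mock. In U251 it had 31.0 and 26.1 CPM in siXRN2 libraries, against 144 and 134 in siNT and 138 and 143 in mock. The log2 fold change of XRN2 against siNT was -2.90 ± 0.17 in LN229 (SE; edgeR quasi-likelihood test, Benjamini-Hochberg adjusted p = 3.77e-06) and -2.28 ± 0.17 in U251 (adjusted p = 6.53e-05). Marker levels are given in CPM without the trimmed-mean scaling. Of the glial markers, GFAP was at 1.18 to 4.55 CPM and SLC1A3 at 0 to 0.825 CPM in LN229. OLIG2 was at 0 to 0.150 CPM in U251, while VIM, NES and CD44 were above 300 CPM in all 12 libraries. The summed level of 4 blood markers was at most 1.02 CPM in every group.

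A pair of libraries stood apart in the mitochondrial genes. Replicate 1 of siNT in LN229 had the lowest share of intron reads, 5.58% of its gene reads, against 7.60% to 9.55% in the other 11 libraries. Its ratio of MT-ND4L to MT-ND4 in the deposited TPM, reads per length scaled to a fixed total, was 0.289, against 0.452 to 0.533 elsewhere. Replicate 2 of mock in U251 had the lowest share of mitochondrial reads and the lowest MT-ND5 and MT-ND6 of its line.

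The 3′ ends of the annotated transcripts show where a coding frame runs to the last encoded base. Of the 13 mRNAs, 5 end in a full stop codon, 6 end in T or TA, which only the added tail completes to a stop codon, and MT-CO1 and MT-ND6 end in AGA or AGG. The last 30 bases of 5 mRNAs that recur below follow, 5′ to 3′, with the stop codon, its encoded part or the last codon in capitals (GENCODE release 29 transcripts, GRCh38).
MT-ND1: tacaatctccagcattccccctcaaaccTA
MT-ND2: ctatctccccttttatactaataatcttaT
MT-CO1: ttcgaagaacccgtatacataaaatctAGA
MT-ND6: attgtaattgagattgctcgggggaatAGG
MT-CYB: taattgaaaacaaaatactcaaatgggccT
These ends lie at MT:4233-4262, MT:5482-5511, MT:7416-7445, MT:14149-14178 and MT:15858-15887, with MT-ND6 on the minus strand and the others on the plus strand. The positions in the files equal those of GRCh38 for all 37 genes, and each of the 13 mRNA genes is given as 1 exon with no intron.

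Neighbouring genes also overlap, and reads there can belong to both. The pairs named here lie on the plus strand, so strand information would not separate them. MT-ATP8 and MT-ATP6 share 46 bases, MT-ATP6 and MT-CO3 share 1 base, and MT-ND4L and MT-ND4 share 7 bases. The start codon of MT-ND4 lies inside the last codons of MT-ND4L, as the stretch MT:10749-10777 of the plus strand shows, with the 7 shared bases in capitals.
MT-ND4L to MT-ND4: aacctactccaATGCTAAaactaatcgtc
Although these genes have 1 exon, the tables list 4518 to 8445 reads of the 13 mRNA genes per library as intron reads. They were most frequent for MT-ATP8, with 19.4% to 31.7% of its gene reads, and MT-ND4L, with 15.1% to 22.4%. MT-ND6, which overlaps no other gene, had 8.03% to 11.3%, and MT-ATP6 had 6.42% to 10.8%. The short MT-ND3 had 1.23% to 6.84%. The share was at most 2.89% for MT-ND1, 2.11% for MT-CO1 and 0.688% for MT-CYB. The levels of MT-ATP8 and MT-ND4L therefore rest on the part of their reads that was counted as exonic.

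Nuclear copies of mitochondrial sequence are a second source of ambiguity. Of 405 nuclear genes named as such copies, 360 are listed without an exon and 35 had any gene read, 114 gene reads over the 12 libraries together. The copies with the most exon reads were MTRNR2L12 with 21, MTRNR2L4 with 11, MTRNR2L8 with 8, MTCO3P43 with 5 and MTRNR2L1 with 3. Unique reads were 94.9% to 95.7% of the mitochondrial exon reads, against 86.0% to 88.3% of all exon reads. They were scarcest for MT-ND2, at 76.0% to 82.3%, followed by MT-CO1 at 87.8% to 89.8% and MT-ATP6 at 94.3% to 95.8%; for the other 10 mRNAs they were at least 97.4%. These 3 genes also shared the most sequence with nuclear copies, though in another order. Of the windows of 50 bases, 49.5% of those of MT-CO1, 46.7% of those of MT-ATP6 and 43.6% of those of MT-ND2 occurred unchanged in a copy on chromosome 1, the longest being 98.7% identical to MT-CO1 over 1542 bases. The chromosome 1 copies of these 3 genes, MTCO1P12, MTATP6P1 and MTND2P28, had 0 reads in all libraries, but they are listed without an exon. Total and unique gene reads differed for 111 of 2210 genes with a read and no exon, against 15249 of 26371 with an exon. Reads that match more than 1 place were thus seldom listed for such genes, and the 0 does not show where they were counted.

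The 13 mRNAs together took a larger share of all exon reads in each siXRN2 library than in any siNT or mock library of the same line. In LN229 the share was 2.99% and 3.21% in siXRN2 libraries, against 2.92% and 2.69% in siNT and 2.81% and 2.71% in mock. In U251 it was 3.17% and 3.19% in siXRN2 libraries, against 3.11% and 3.16% in siNT and 3.12% and 2.57% in mock. The siXRN2 libraries were thus the 2 highest of their line in both, but in U251 the interval of the lower one, 3.161% to 3.187%, overlapped that of the higher siNT library, 3.146% to 3.174%, so these 2 could not be told apart at this depth. The 95% Wilson intervals of the shares reach 0.0116 to 0.0153 percentage points to either side, which covers counting error only. The shares are not scaled by the trimmed mean of M-values (TMM). Its factors in LN229 were 1.09 and 1.12 in siXRN2, 1.02 and 1.05 in siNT and 1.06 and 1.06 in mock. In U251 they were 0.939 and 0.947, 0.940 and 0.928, and 0.936 and 0.933. Divided by these factors, the siXRN2 shares would not lie above replicate 1 of siNT in LN229 or replicate 2 of siNT in U251. In bulk RNA, fewer cells that carry a transcript and less of it per cell cannot be told apart.

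**Figure D1:**
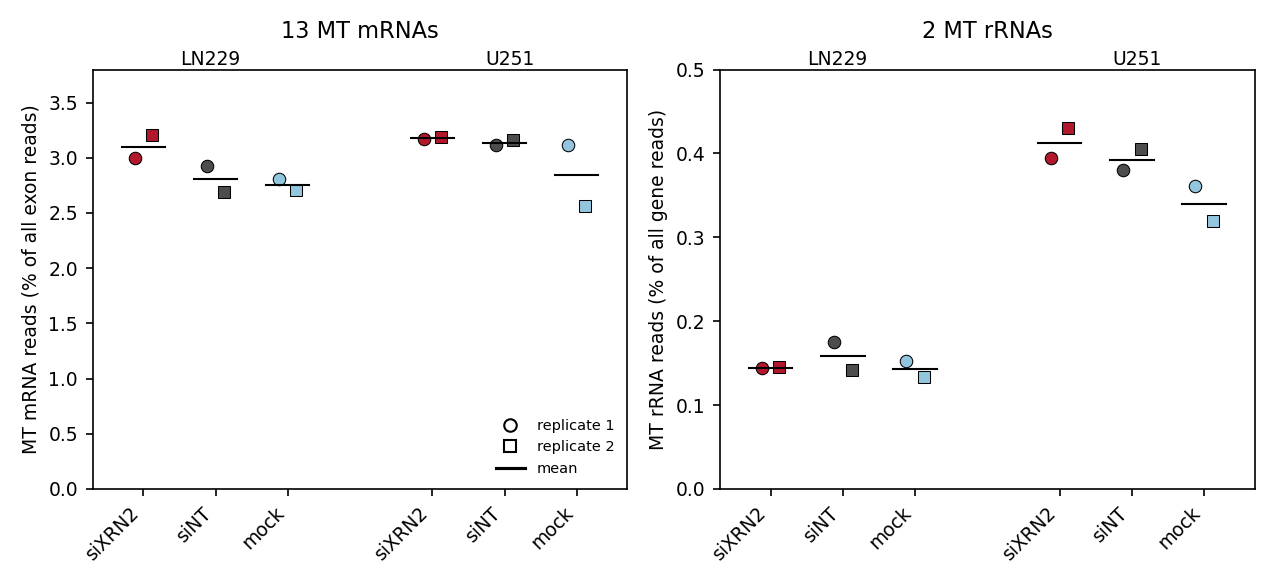
Share of mitochondrial reads in each library. Left, reads of the 13 mRNAs in percent of all exon reads; right, reads of the 2 rRNAs in percent of all gene reads; each point is 1 library and the bar is the mean of 2. The siXRN2 points lie above the controls of their line on the left, by a wider margin in LN229 than in U251, and on the right the U251 libraries, at 0.319% to 0.430%, all lie above the LN229 libraries, at 0.133% to 0.175%.

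The mean share in LN229 was 3.10% ± 0.15 in siXRN2 libraries, against 2.81% ± 0.17 in siNT and 2.76% ± 0.070 in mock (SD, n = 2 each). This is a difference of 0.296 percentage points from siNT and 0.344 from mock. Without 1 library at a time the difference from siNT was 0.415 and 0.178 (without replicate 1 or 2 of siNT) and 0.403 and 0.189 (without replicate 1 or 2 of siXRN2), and that from mock was 0.237 to 0.451. In U251 the mean was 3.18% ± 0.012 in siXRN2 libraries, against 3.14% ± 0.033 in siNT and 2.84% ± 0.39 in mock (SD, n = 2 each). Here the difference was 0.0454 percentage points from siNT and 0.340 from mock, and the last value was 0.0647 without replicate 2 of mock and 0.616 without replicate 1. The difference from siNT was 0.0224 without replicate 1 of siNT and 0.0684 without replicate 2. With 2 libraries against 2, an exact permutation test cannot give a p below 0.333, and each of these 4 comparisons gave that value. The control siRNA alone differed from mock by 0.0477 percentage points in LN229 (exact permutation p = 1) and 0.295 in U251 (exact permutation p = 0.667). The LN229 value was -0.0709 without replicate 1 of siNT and 0.166 without replicate 2, and -0.0019 without replicate 2 of mock. The U251 value was 0.0193 without replicate 2 of mock and 0.571 without replicate 1.

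Both lines were put in one test, with labels permuted within each line and shares not scaled by TMM. The siXRN2 libraries exceeded the 8 siNT and mock libraries by 0.256 percentage points (two-sided exact permutation p = 0.0444 over 225 arrangements, the smallest possible being 0.00444). The share was higher in 4 of 4 siXRN2 libraries than in each control of the line. The test no longer passed 0.05 without replicate 2 of siXRN2 in LN229 (0.203 points, exact p = 0.147), without either siXRN2 library of U251 (exact p = 0.133 for both), or without replicate 2 of mock or replicate 2 of siNT in LN229 (exact p = 0.0533 for both). With labels permuted only among libraries of the same replicate number, as a replicate block, the exact p was 0.0617. It also did not pass when gene reads, introns and rRNAs included, replaced exon reads (0.242 points, exact p = 0.0889). On unique exon reads the difference was 0.277 points (exact p = 0.0489), and without replicate 2 of mock in U251 it was 0.186 points (exact p = 0.00667, the smallest possible there). Counted as a share of summed TPM, the mitochondrial genes made up 13.5% and 14.3% in siXRN2, 12.1% and 12.3% in siNT and 12.9% and 12.4% in mock in LN229. In U251 they made up 14.8% and 14.9% in siXRN2, 14.8% and 14.7% in siNT and 14.7% and 12.04% in mock.

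In CPM without TMM scaling, some marker sums lay apart from all controls in the siXRN2 libraries of LN229. The sum of 8 glial markers was 3621 to 4487 CPM in siXRN2 libraries, against 5161 to 6412 CPM in siNT and 5099 to 5250 CPM in mock. In U251 the glial sum was 15810 to 16780 CPM in siXRN2 libraries, against 14450 to 16300 CPM in siNT and 8966 to 14370 CPM in mock. The sum of 3 oligodendrocyte markers in LN229 was 356 to 503.5 CPM in siXRN2 libraries, against 215.8 to 220.4 CPM in siNT and 190.2 to 211.9 CPM in mock. The sum of 3 endothelial markers was 6.49 to 7.68 CPM in siXRN2 libraries of LN229, against 3.30 to 3.88 CPM in siNT and 3.08 to 3.39 CPM in mock. In U251 it was 5.43 to 6.39 CPM in siXRN2 libraries, against 2.99 to 3.92 CPM in siNT and 2.71 to 3.75 CPM in mock, with PECAM1 at 0 in all. In LN229 3 neuronal markers, with STMN2 at 0, summed to 61.1 to 68.7 CPM in siXRN2 libraries, against 51.2 to 60.7 CPM in siNT and 46.1 to 53.9 CPM in mock. Divided by the TMM factors, this neuronal sum would overlap siNT. The 4 blood markers summed to 0.148 to 0.197 CPM in siXRN2 libraries of LN229, against 0.619 to 0.706 CPM in siNT and 0.937 to 1.02 CPM in mock. The sum of 3 epithelial markers overlapped siNT in both lines, and the oligodendrocyte, neuronal and blood sums overlapped siNT in U251. The sum of 3 fibroblast markers overlapped mock in LN229. In U251 the fibroblast sum was 499.7 to 557.7 CPM in siXRN2 libraries, against 428.8 to 483.1 CPM in siNT and 273.7 to 445.5 CPM in mock. The part of these marker sums in the share was not tested.

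Gene by gene, no mitochondrial mRNA passed the test in any comparison of siXRN2 cells. All 13 passed the filter on low counts and were fitted with the other genes, 14232 in all. Against siNT the edgeR quasi-likelihood test called 0 of 13 in LN229, where 3.16% of all genes tested were called, and 0 of 13 in U251, where 0.00703% were. Against mock it called 0 of 13 in LN229 (1.28% of all genes) and 0 of 13 in U251 (0.0492% of all genes). The mean of both lines against siNT (1.22% of all genes called) and against siNT and mock (4.15% called) likewise gave 0 of 13. At an unadjusted p under 0.05 the count was 0 of 13 in each of these 6 comparisons. DESeq2 also called 0 of 13 in each, and had 2 of 13 under an unadjusted 0.05 against siNT in LN229 1 of 13 against mock in U251, 1 of 13 in the mean against siNT and 1 of 13 in the mean against siNT and mock. The median log2 fold change of the 13 against siNT was 0.09 in LN229 and -0.02 in U251, beside -0.00070 and 0.0028 for all genes tested. Against mock it was 0.04 in LN229 and 0.14 in U251, beside -0.0038 and 0.01.

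**Figure D2:**
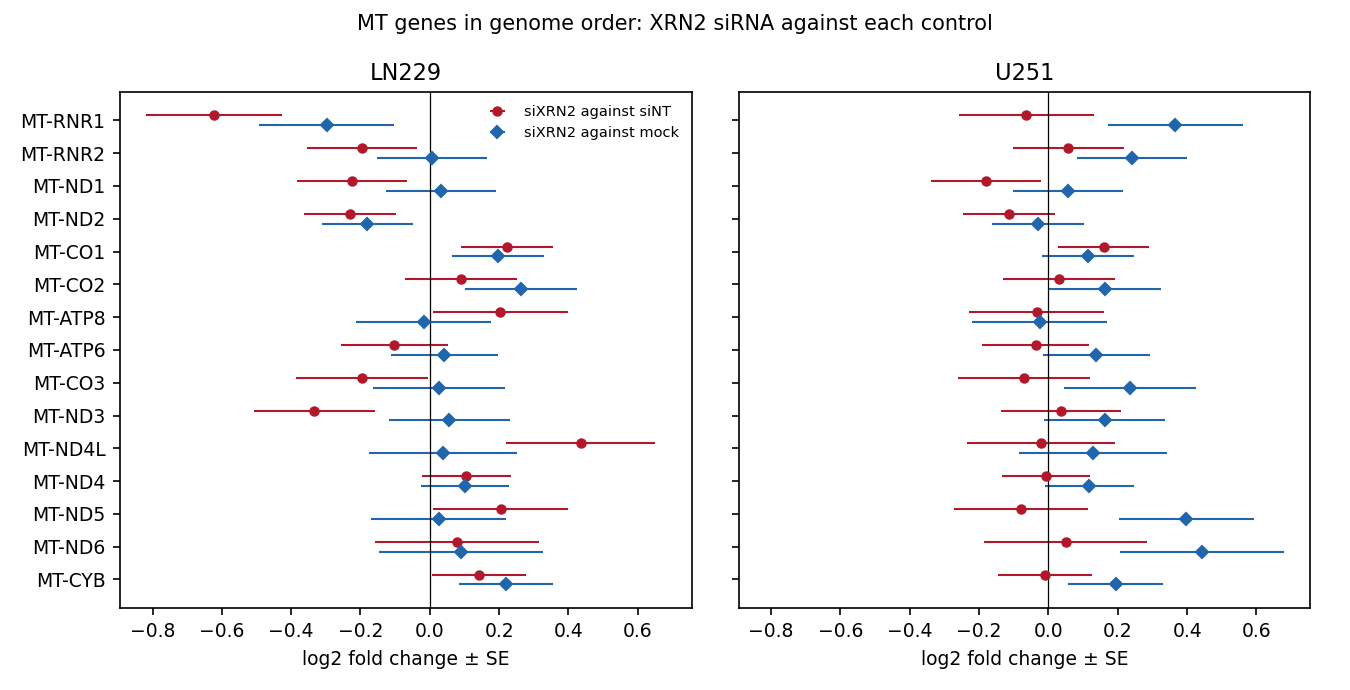
Log2 fold change of each mitochondrial mRNA and rRNA, in genome order, in siXRN2 cells against siNT (circles) and against mock (diamonds), in LN229 (left) and U251 (right). Points are fitted values and lines their SE; mRNAs were fitted on exon reads and rRNAs on gene reads. MT-CO1 lies above 0 in all 4 comparisons, between 0.11 and 0.22, and MT-ND2 below 0 in all 4, between -0.23 and -0.03.

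Complex IV, cytochrome c oxidase, passes electrons to oxygen, and its catalytic core is encoded by MT-CO1, MT-CO2 and MT-CO3. MT-CO1, which carries the haem groups, had 6172 and 6551 CPM in the siXRN2 libraries of LN229, against 5626 and 5283 CPM in siNT and 5785 and 5321 CPM in mock. In U251 it had 7753 and 8086 CPM in siXRN2 libraries, against 6743 and 7443 CPM in siNT and 7529 and 7109 CPM in mock. MT-CO1 was thus higher in each siXRN2 library than in each control of its line, as 16.0% of all genes tested were in LN229 and 13.8% in U251. Its log2 fold change against siNT was 0.22 ± 0.13 in LN229 (edgeR adjusted p = 0.343) and 0.16 ± 0.13 in U251 (adjusted p = 1). Over both lines against siNT and mock it was 0.17 ± 0.081 (adjusted p = 0.237; without one library at a time 0.15 to 0.19). None of these values passed the test.

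MT-CO2, whose product takes electrons from cytochrome c, had 3881 and 3948 CPM in the siXRN2 libraries of LN229, against 4275 and 3081 CPM in siNT and 3379 and 3149 CPM in mock. In U251 MT-CO2 had 4461 and 4453 CPM in siXRN2 libraries, against 4332 and 4398 CPM in siNT and 4290 and 3673 CPM in mock. The siXRN2 libraries lay above all controls in U251, but within the spread of siNT in LN229, where replicate 1 of siNT was the highest of the 6 libraries. Without that library MT-CO2 over both lines against siNT and mock had a log2 fold change of 0.21 and an adjusted p of 0.0495 (edgeR), against 0.14 and 0.457 with it. MT-CO3 had 3018 and 2940 CPM in the siXRN2 libraries of LN229, against 3904 and 2920 CPM in siNT and 2988 and 2857 CPM in mock. In U251 MT-CO3 had 3892 and 3955 CPM in siXRN2 libraries, against 3979 and 4265 CPM in siNT and 4018 and 2649 CPM in mock. It was below both siNT libraries in U251 and overlapped every other control.

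Complex I, NADH dehydrogenase, holds 7 of the encoded subunits. MT-ND1, in the membrane arm next to the quinone site, had 728 and 700 CPM in the siXRN2 libraries of LN229, against 966 and 703 CPM in siNT and 704 and 692 CPM in mock. In U251 it had 1151 and 1064 CPM in siXRN2 libraries, against 1262 and 1246 CPM in siNT and 1146 and 986 CPM in mock. MT-ND1 was thus below both siNT libraries in U251 and overlapped the other controls. Its log2 fold change against siNT was -0.22 ± 0.16 in LN229 (adjusted p = 0.424) and -0.18 ± 0.16 in U251 (adjusted p = 1). In LN229 this value for MT-ND1 was 0.05 without replicate 1 of siNT and -0.44 without replicate 2 (edgeR adjusted p = 0.0207), so a single library set its direction.

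MT-ND2, a proton-pumping subunit, had 1856 and 1768 CPM in the siXRN2 libraries of LN229, against 2202 and 2048 CPM in siNT and 2007 and 2099 CPM in mock. In U251 it had 2107 and 2064 CPM in siXRN2 libraries, against 2250 and 2264 CPM in siNT and 2288 and 1971 CPM in mock. MT-ND2 was lower in both siXRN2 libraries than in all controls in LN229, as 16.8% of all genes tested were, and in U251 it was below siNT and overlapped mock. The log2 fold change of MT-ND2 was -0.23 ± 0.13 against siNT and -0.18 ± 0.13 against mock in LN229 (adjusted p = 0.324 and 0.560), and neither passed the test. It is the gene with the lowest share of unique reads.

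MT-ND3 had 299 and 322 CPM in the siXRN2 libraries of LN229, against 464 and 319 CPM in siNT and 294 and 304 CPM in mock. MT-ND4L had 463 and 428 CPM in siXRN2 libraries of LN229, against 235 and 424 CPM in siNT and 442 and 427 CPM in mock. For both of these small subunits the value far from the rest was replicate 1 of siNT, high for MT-ND3 and low for MT-ND4L. Against siNT in LN229 the log2 fold change was -0.33 ± 0.17 for MT-ND3 and 0.43 ± 0.21 for MT-ND4L (adjusted p = 0.278 and 0.250). Without replicate 1 of siNT these were -0.0091 and 0.10, and without replicate 2 they were -0.58 and 0.92 (edgeR adjusted p = 0.0104 for MT-ND3 and 0.00141 for MT-ND4L). In U251, MT-ND3 had 383 and 378 CPM in siXRN2 libraries, against 377 and 366 CPM in siNT and 381 and 300 CPM in mock. MT-ND4L had 537 and 548 CPM in U251 siXRN2 libraries, against 576 and 524 CPM in siNT and 543 and 449 CPM in mock. Those values span a range common to siXRN2 and mock for both genes, and only MT-ND3 lay above both siNT libraries.

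MT-ND4, another proton-pumping subunit, had 4034 and 4286 CPM in the siXRN2 libraries of LN229, against 3781 and 3951 CPM in siNT and 3895 and 3857 CPM in mock. In U251 it had 5330 and 5126 CPM in siXRN2 libraries, against 5270 and 5235 CPM in siNT and 5020 and 4614 CPM in mock. MT-ND4 was above all controls in LN229 and overlapped siNT in U251, with a log2 fold change against siNT of 0.11 ± 0.13 in LN229 and -0.0068 ± 0.13 in U251. MT-ND5 had 1988 and 2140 CPM in the siXRN2 libraries of LN229, against 1587 and 1995 CPM in siNT and 2025 and 2031 CPM in mock. In U251 MT-ND5 had 2334 and 2252 CPM in siXRN2 libraries, against 2377 and 2468 CPM in siNT and 2150 and 1331 CPM in mock. The siXRN2 libraries of U251 were thus below siNT and above mock for MT-ND5.

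MT-ND6 is the mRNA encoded on the opposite strand to the other 12, and its transcript is known to carry little or no poly(A) tail. Without strand information, its count can include reads from RNA of the other strand at the same positions. Counted this way, MT-ND6 had 476 and 515 CPM in the siXRN2 libraries of LN229, against 501 and 438 CPM in siNT and 466 and 465 CPM in mock. In U251 MT-ND6 had 643 and 605 CPM in siXRN2 libraries, against 618 and 587 CPM in siNT and 614 and 303 CPM in mock. The groups overlapped in U251, and replicate 2 of mock was far below the other 5 libraries there. Without replicate 1 of mock, which leaves that library as the only mock sample, assumed to vary like the other groups, the log2 fold change against mock in U251 was 1.04 for MT-ND6 and 0.78 for MT-ND5 (edgeR adjusted p = 0.00291 and 0.0222). Without replicate 2 these were 0.02 and 0.09.

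**Figure D3:**
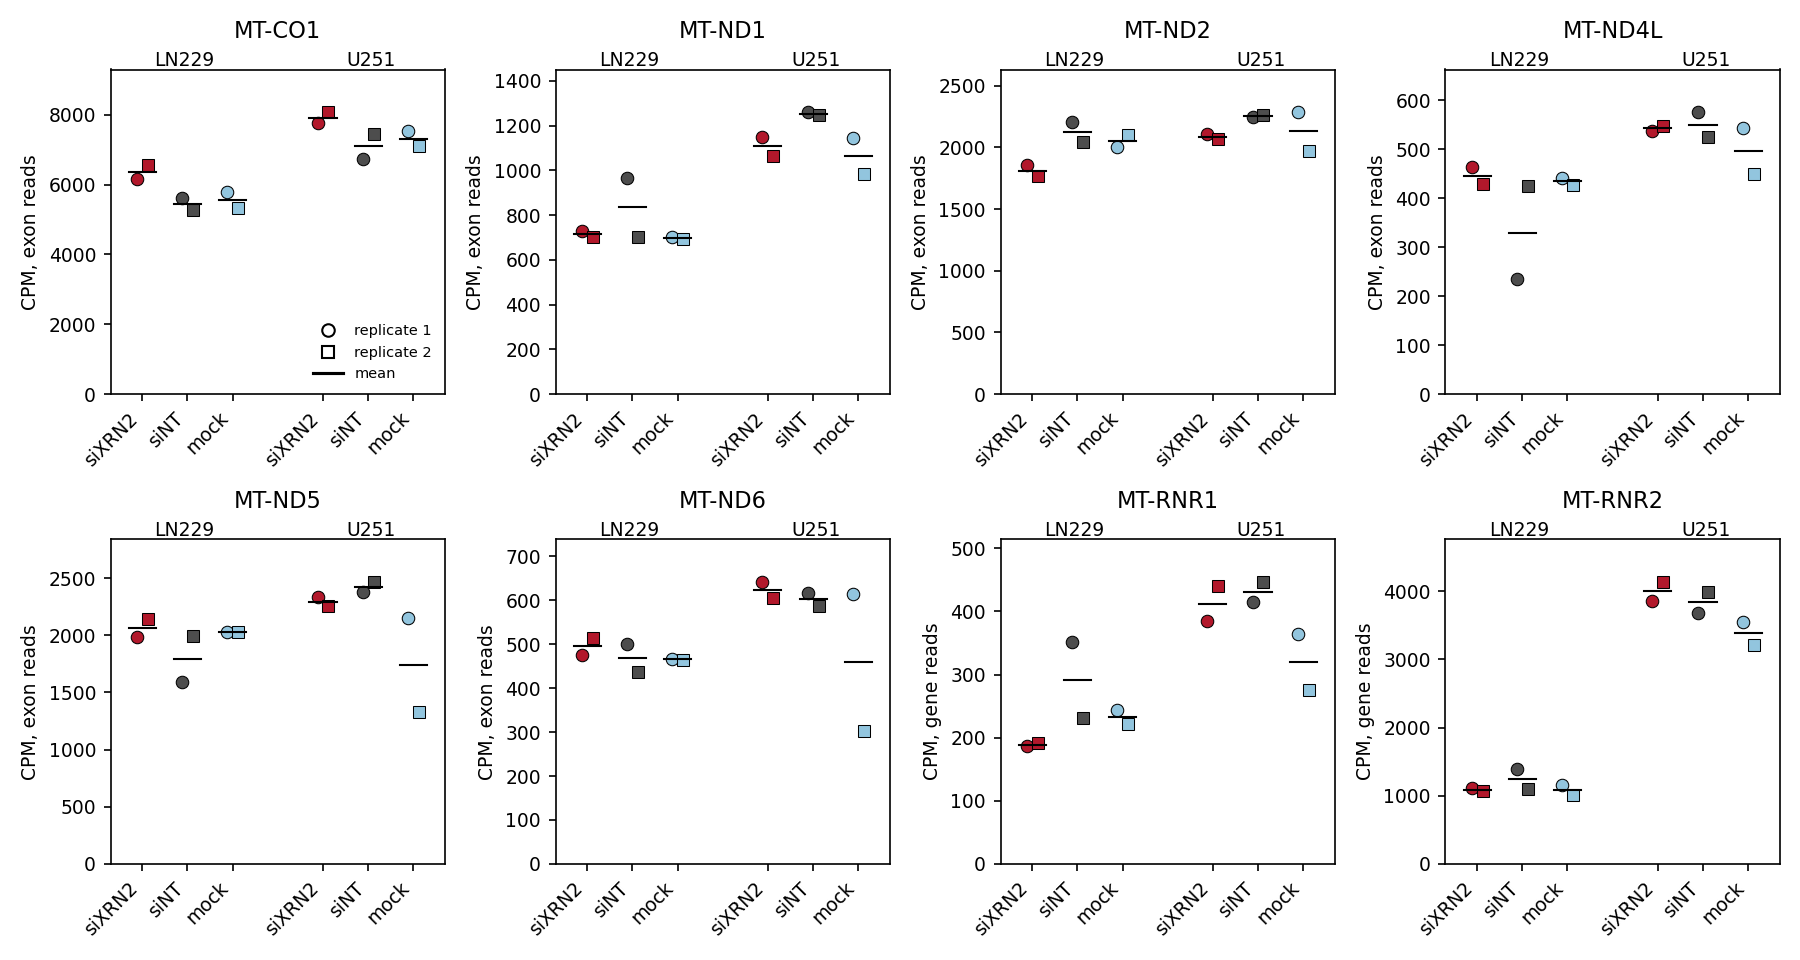
Levels of 6 mRNAs (CPM of exon reads) and of both rRNAs (CPM of gene reads) in each of the 12 libraries; each point is 1 library and the bar is the mean of 2. MT-CO1 shows siXRN2 points above both controls in both lines, MT-ND1, MT-ND4L and MT-RNR1 show replicate 1 of siNT apart from the other LN229 libraries, MT-ND5 and MT-ND6 show replicate 2 of mock apart in U251, and MT-RNR2 shows U251 far above LN229.

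Complex III has 1 mitochondrially encoded subunit, cytochrome b, from MT-CYB. The gene had 1733 and 1822 CPM in the siXRN2 libraries of LN229, against 1667 and 1554 CPM in siNT and 1542 and 1509 CPM in mock. In U251 MT-CYB had 1601 and 1550 CPM in siXRN2 libraries, against 1587 and 1585 CPM in siNT and 1511 and 1244 CPM in mock. In LN229 it was above all 4 controls, and in U251 it overlapped siNT. The log2 fold change of MT-CYB in LN229 was 0.14 ± 0.14 against siNT (adjusted p = 0.563) and 0.22 ± 0.14 against mock (adjusted p = 0.468).

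Complex V, the ATP synthase, takes subunits from MT-ATP6, which forms the proton channel, and MT-ATP8. MT-ATP6 had 2451 and 2683 CPM in the siXRN2 libraries of LN229, against 3025 and 2485 CPM in siNT and 2483 and 2505 CPM in mock. In U251 MT-ATP6 had 3123 and 3121 CPM in siXRN2 libraries, against 3219 and 3189 CPM in siNT and 3188 and 2486 CPM in mock. The siXRN2 libraries lay below both siNT libraries in U251, by less than 0.04 on the log2 scale, and the groups overlapped in LN229. MT-ATP8 had 398 and 426 CPM in the siXRN2 libraries of LN229, against 308 and 407 CPM in siNT and 428 and 406 CPM in mock. In U251 MT-ATP8 had 502 and 484 CPM in siXRN2 libraries, against 529 and 480 CPM in siNT and 613 and 391 CPM in mock, and no group lay apart.

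Against siNT alone, the siXRN2 libraries of LN229 lay above both control libraries for 4 of 13 mRNAs (23.3% of all genes tested) and below for 1 (23.6%), and those of U251 above for 3 (23.5%) and below for 5 (21.8%). Against mock alone they lay above for 5 of 13 in LN229 (26.8%) and below for 1 (29.3%), and in U251 above for 5 (25.4%) and below for 0 (19.6%). The siNT libraries lay above both mock libraries for 2 of 13 in LN229 (16.3%) and 6 of 13 in U251 (17.9%), and below for 2 (15.5%) and 0 (15.1%). Against both controls together, 3 of the 13 mRNAs (MT-CO1, MT-ND4 and MT-CYB) were above all siNT and mock libraries in LN229, where 16.0% of all genes tested were. MT-ND2 alone was below them all, where 16.8% of all genes were. In U251 MT-CO1 and MT-CO2 were above all controls (13.8% of all genes tested) and 0 were below (10.5% of all genes). MT-CO1 was above all controls in both lines on gene reads as well, where 15.5% of all genes were in LN229 and 13.4% in U251, but MT-ND4, MT-CYB and MT-CO2 were not. Complex IV transcripts made up 47.5% and 47.1% of the mitochondrial exon reads in the siXRN2 libraries of LN229, against 48.4% and 44.1% in siNT and 46.0% and 44.2% in mock. In U251 they made up 47.6% and 49.0% in siXRN2 libraries, against 45.5% and 47.3% in siNT and 47.6% and 48.8% in mock. Complex III, which is MT-CYB, made up 6.30% and 6.39% in the siXRN2 libraries of LN229, against 5.84% and 6.07% in siNT and 5.83% and 5.89% in mock. Complex V transcripts made up 10.4% and 10.9% in the siXRN2 libraries of LN229, against 11.7% and 11.3% in siNT and 11.01% and 11.4% in mock. In LN229 the siXRN2 libraries were thus above all controls for complex III and below all for complex V, while in U251 both lay within the range of the 4 controls; these shares were not tested. Complex I transcripts made up 34.1% to 38.6% over all 12 libraries.

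A test of whether the effect of XRN2 siRNA against siNT differed between LN229 and U251 called 0 of the 13 mRNAs, and 0 of all 14232 genes were called (edgeR; 945 of all genes but 0 of the 13 had an unadjusted p under 0.05; DESeq2 called 15 of all genes and 0 of the 13, all 13 at or above an unadjusted 0.05). The largest differences among the 13 were 0.46 ± 0.30 for MT-ND4L and -0.37 ± 0.25 for MT-ND3, the genes whose values turned on replicate 1 of siNT in LN229. The control siRNA against mock called 0 of 13 in both lines, where 0.0% of all genes were called. At an unadjusted p under 0.05 the edgeR test had 1 of 13 in LN229, MT-ND3, and 1 of 13 in U251, MT-ND5, and DESeq2 called 0 of 13 in both.

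The rRNAs of the mitochondrial ribosome, MT-RNR1 of the small and MT-RNR2 of the large subunit, carry no exon in the tables. All their reads are therefore listed as intron reads, and they were fitted on gene reads (16015 genes tested), a choice made after the data were seen. In none of the 12 libraries did the total and unique gene reads of the rRNAs differ. The same held for most genes without an exon, since the 2 counts differed for only 111 of 2210 such genes with a read. The equality therefore does not show that the rRNA reads were unambiguous. Of the windows of 50 bases of MT-RNR2, 14.0% occurred unchanged in a nuclear copy, against 0 of those of MT-RNR1. MT-RNR1 had 187 and 192 CPM in the siXRN2 libraries of LN229, against 352 and 231 CPM in siNT and 244 and 221 CPM in mock. It had 385 and 440 CPM in the siXRN2 libraries of U251, against 415 and 447 CPM in siNT and 365 and 275 CPM in mock. MT-RNR1 was thus lowest in siXRN2 cells in LN229, with no overlap with the controls, as were 16.7% of all genes tested, and in U251 it was above mock and overlapped siNT.

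Its log2 fold change against siNT in LN229 was -0.62 ± 0.20, with an unadjusted p of 0.00736 and an edgeR adjusted p of 0.0964. The value for MT-RNR1 was -0.26 without replicate 1 of siNT and -0.90 without replicate 2 (adjusted p = 0.00242). Against mock in LN229 it was -0.30 ± 0.20 (adjusted p = 0.520), and against siNT in U251 it was -0.06 ± 0.19 (adjusted p = 1). Of the 15 genes fitted on gene reads, 0 were called in any siXRN2 comparison, where 3.14% of all genes were called against siNT in LN229, 1.04% against mock in LN229, 0.00624% against siNT in U251 and 0.0375% against mock in U251. The means over both lines had 1.11% of all genes called against siNT and 3.71% against siNT and mock. At an unadjusted p under 0.05 there were 2 of 15 against siNT in LN229, 1 of 15 in the mean against siNT and 0 in the other 4 comparisons, and DESeq2 was not run on gene reads.

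MT-RNR2 had 1110 and 1070 CPM in the siXRN2 libraries of LN229, against 1394 and 1103 CPM in siNT and 1160 and 1011 CPM in mock. It had 3853 and 4138 CPM in the siXRN2 libraries of U251, against 3683 and 3995 CPM in siNT and 3552 and 3210 CPM in mock. The siXRN2 libraries overlapped siNT in both lines and mock in LN229, and no difference passed the test. The ratio of MT-RNR2 to MT-RNR1 in TPM was 3.64 and 3.42 in the siXRN2 libraries of LN229, against 2.42 and 2.92 in siNT and 2.91 and 2.80 in mock. In U251 it was 6.12 and 5.76 in siXRN2 libraries, against 5.43 and 5.47 in siNT and 5.96 and 7.14 in mock. It was thus above all controls in LN229 and overlapped mock in U251. The rRNAs are abundant in cells, but here they took only 4.62% to 5.78% of the mitochondrial gene reads in LN229 and 10.9% to 12.5% in U251, in libraries of polyadenylated RNA.

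All 22 tRNAs had 0 reads in every column of all 12 libraries. A count of 0 allows up to 3 counts, or 0.365 to 0.584 reads per 1e6 gene reads depending on the library. No statement on tRNAs is therefore possible at this depth and with this kit. They carry no exon in the tables either.

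Levels were compared between genes per length, in the deposited TPM. MT-CO2 was the highest in all 6 groups, at 20066 ± 1041 TPM in LN229 mock and 21338 ± 1989 TPM in U251 mock cells (SD, n = 2 each). MT-CO1, MT-CO3 and MT-ATP6 followed, and these 3 did not differ beyond their spread in U251 mock, at 17410 ± 420, 15566 ± 4273 and 15265 ± 2424 TPM. MT-ND4 came next with 11829 ± 104 TPM in LN229 mock and 12819 ± 553 TPM in U251 mock. MT-ND4L, made from the same transcript as MT-ND4, read at 0.526 and 0.513 of it in LN229 mock and 0.502 and 0.452 in U251 mock. MT-RNR1 was the lowest of the 15 in all 6 groups, at 1158 ± 88 TPM in LN229 mock and 1312 ± 243 TPM in U251 mock. The lowest mRNA was MT-ND1 in LN229 mock, at 3070 TPM, and MT-ND6 in U251 mock, at 3194 TPM.

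**Figure D4:**
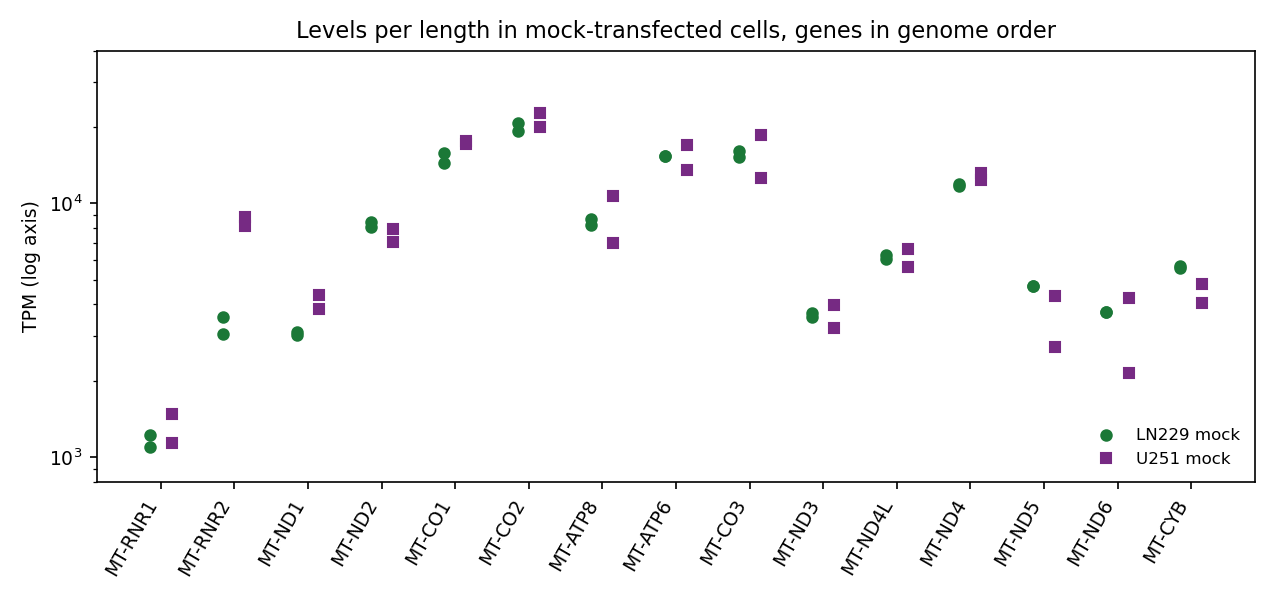
Levels per length (TPM, log axis) of the 13 mRNAs and 2 rRNAs in genome order in mock-transfected cells, 2 libraries of LN229 and 2 of U251. MT-CO2 is the highest in both lines, and MT-RNR2 differs most between the lines, at 3552 and 3062 TPM in LN229 and 8835 and 8133 TPM in U251.

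In mock cells 2 of the 13 mRNAs were called between LN229 and U251 (edgeR, adjusted p under 0.05), both lower in LN229, where 55.0% of all genes tested were called and 27.0% were called lower. MT-ND1 had 704 and 692 CPM in LN229, against 1146 and 986 CPM in U251, a log2 fold change of -0.61 ± 0.16 (adjusted p = 0.00555). MT-CO1 had 5785 and 5321 CPM in LN229, against 7529 and 7109 CPM in U251, a log2 fold change of -0.40 ± 0.13 (adjusted p = 0.0214). DESeq2 called these and MT-ND4, 3 of 13. The call of MT-CO1 was lost with the replicate number as a block (-0.36, adjusted p = 0.0882), with unscaled library sizes (-0.22, adjusted p = 0.161), and without either mock library of LN229 or replicate 1 of mock in U251 (adjusted p = 0.0597, 0.155 and 0.0647). The 5 mRNAs wholly below U251 (38.1% of all genes were) were MT-ND1, MT-CO1, MT-CO2, MT-ND4L and MT-ND4, and 0 lay wholly above (41.5%). With library sizes only, the median of all genes moved to 0.21, beside 0.03 with TMM scaling, and that of the 13 mRNAs to -0.0098, beside -0.19. On gene reads 4 of 15 were called, all lower in LN229, where 54.3% of all genes were called and 27.2% lower. MT-RNR2 stood out among them, with 1160 and 1011 CPM in LN229, against 3552 and 3210 CPM in U251, a log2 fold change of -1.64 ± 0.16 (adjusted p = 2.62e-06), which stayed called under every alternative run, at -1.74 to -1.40. MT-RNR1 had a log2 fold change of -0.46 ± 0.20 (adjusted p = 0.0614).

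The nuclear genes that make and maintain these RNAs were examined as 4 lists. Of 16 genes for transcription and replication of mitochondrial DNA, all tested, 0 were called against siNT in either line, and 1 was called lower against mock in LN229, as were 0.731% of all genes. This was TFB1M, a methyltransferase of the small-subunit rRNA, with 4.34 and 4.73 CPM in siXRN2 libraries of LN229, against 7.65 and 7.74 CPM in siNT and 9.91 and 9.25 CPM in mock. Its siXRN2 libraries lay below all controls. The log2 fold change of TFB1M against mock was -1.08 ± 0.21 (edgeR adjusted p = 0.0325; DESeq2 adjusted p = 0.0614), and without one library at a time the adjusted p was 0.0590 to 0.279, so no such set kept the call. Over both lines against siNT and mock TFB1M was called at -0.55 ± 0.13 (edgeR adjusted p = 0.0327), but not by DESeq2 (adjusted p = 0.0999). The call was lost without any one of 8 of the 12 libraries, namely both mock and both siXRN2 libraries of LN229 and both siNT and both siXRN2 libraries of U251 (adjusted p = 0.0632 to 0.153). In U251 TFB1M had 11.1 and 12.5 CPM in siXRN2 libraries, against 11.8 and 12.7 CPM in siNT and 13.7 and 15.3 CPM in mock, with overlap with siNT. TFAM and POLRMT, the packaging factor and the RNA polymerase, were not called in a siXRN2 comparison. TFAM had 44.3 and 31.3 CPM in siXRN2 libraries of LN229, against 55.2 and 59.2 CPM in siNT and 57.2 and 55.5 CPM in mock. This was below all controls, as for 16.8% of all genes tested, and U251 overlapped siNT. The 16 genes had a median log2 fold change against siNT of -0.23 in LN229 and -0.07 in U251, with 3 and 4 above 0. Of all genes 49.1% and 50.6% were. The medians were not tested.

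Of 38 genes for processing, modification and decay of mitochondrial RNA, 36 were found and tested, and 1 was called against siNT in LN229, lower, as were 1.95% of all genes. TRMU, which adds sulphur to the wobble base of several tRNAs, had 70.2 and 61.8 CPM in siXRN2 libraries of LN229, against 117 and 93.8 CPM in siNT and 86.3 and 88.4 CPM in mock. The log2 fold change of TRMU was -0.67 ± 0.16 (edgeR adjusted p = 0.0374), and -0.48 without replicate 1 of siNT and -0.58 without replicate 2 of siXRN2 (adjusted p = 0.141 and 0.379), both with the call lost. In U251 TRMU had 37.2 and 40.0 CPM in siXRN2 libraries, against 46.9 and 42.9 CPM in siNT and 41.8 and 33.0 CPM in mock. TRMU overlapped the mock libraries there. None of the 10 regulators of mitochondrial biogenesis was called in a siXRN2 comparison by the edgeR test.

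Of 79 mitochondrial ribosomal protein genes, 78 were tested and 2 were called against siNT in LN229, both lower, as were 1.95% of all genes tested. MRPL12 had 65.2 and 52.0 CPM in siXRN2 libraries of LN229, against 146 and 91.2 CPM in siNT and 91.1 and 83.2 CPM in mock, a log2 fold change against siNT of -1.01 ± 0.20 (adjusted p = 0.0232). MRPL18 had 23.2 and 22.9 CPM in siXRN2 libraries of LN229, against 49.1 and 35.0 CPM in siNT and 30.2 and 31.2 CPM in mock, a log2 fold change against siNT of -0.86 ± 0.18 (adjusted p = 0.0268). Both had siXRN2 libraries below all controls. Without replicate 1 of siNT these became -0.60 for MRPL12 and -0.57 for MRPL18 (adjusted p = 0.101 and 0.116), and neither was called. They were also not called without replicate 2 of siXRN2 (adjusted p = 0.311 for MRPL12 and 0.289 for MRPL18), nor was MRPL18 without replicate 1 of siXRN2 (adjusted p = 0.0529). Over both lines against siNT and mock, where 4.15% of all genes were called, MRPL12 was called at -0.48 ± 0.12 (edgeR adjusted p = 0.0484). This was not kept in all fits without one library, at -0.57 to -0.38. In the mean of both lines MRPL18 was called against siNT (-0.57, edgeR adjusted p = 0.0449, DESeq2 adjusted p = 0.0138). That call was kept without replicate 2 of LN229 siNT and lost without any other of the 8 libraries (adjusted p = 0.0522 to 0.205) and with library sizes only (0.0613).

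The 78 genes had a median log2 fold change of -0.29 against siNT and -0.03 against mock in LN229. For siNT against mock in that line 76 of the 78 fitted values were above 0, against 49.7% of all genes tested. These values rested on replicate 1 of siNT, the library with the low intron share: without it the median of the list against siNT was -0.018, with 0 called, and 48 of 78 were above 0 for siNT against mock. Without replicate 2 of siNT the median was -0.52 and 39 of 78 were called. In U251 0 of 78 were called against siNT (0.00703% of all genes) or mock (0.0492%), with medians of 0.0079 and -0.06.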

How the data were processed

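RNA of 12 libraries was analysed. Per the file headers, the deposited counts are total and unique exon, intron and gene reads of each gene; the deposited TPM stand beside them. No source used here names an aligner or a counting program. Per the submitters' processing notes the build was GRCh37 (hg19), yet all 37 mitochondrial genes, and 96.8% of identifiers found in GENCODE release 29, sit at their GRCh38 positions. Shares are reads of mitochondrial genes over all reads of the same kind. Total exon counts were filtered (filterByExpr, minimum count 10, minimum total 15), scaled by TMM and tested with edgeR 4.0.16 (robust quasi-likelihood, 1 mean per group, 6 residual degrees of freedom, Benjamini-Hochberg over all 14232 genes, threshold 0.05) in R 4.3.3. The fit was tested on simulated data. Shares were compared by exact permutation of libraries, within lines (SciPy 1.17.1). DESeq2 1.42.0, other scalings and filters, unique reads, a replicate block and each library left out were tried. The contrast against siNT and mock over both lines and all fits on gene reads were added after the data were seen. Every mitochondrial mRNA and rRNA is named; of each nuclear list, members called in a siXRN2 contrast are named, at most 4 by p, and of nuclear copies the 5 with most exon reads. TFAM and POLRMT were named in addition. The members and lists were chosen with earlier results of these data known.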

Additional observations from a re-analysis of the deposited data

Results flagged for a closer look

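For 2 genes every library moved one way against mock in one line and the opposite way in the other. MT-ND5 was lower in siNT than in mock in LN229 (log2 ratio of mean CPM -0.18) and higher in U251 (0.48), where replicate 2 of mock was far below the other libraries. The fitted log2 fold change of MT-ND5 was -0.027 in LN229 without replicate 1 of siNT and 0.17 in U251 without replicate 2 of mock. MT-RNR1 was lower in siXRN2 than in mock in LN229 (-0.30) and higher in U251 (0.37), where mock had 365 and 275 CPM. The fitted value of MT-RNR1 was 0.17 in U251 without replicate 2 of mock and -0.37 to -0.23 in LN229 without one library at a time. The difference between the lines was not tested for either.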

How the results depend on the processing

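The count of mitochondrial mRNAs called between LN229 and U251 mock was 2, and 1 with library sizes only, 1 with the replicate block, 4 on gene reads and 1 to 6 without one library at a time. Without one library it was 0 to 3 for siXRN2 against siNT in LN229, 0 to 2 against mock in U251, 0 to 2 for the mean against siNT, 0 to 1 against siNT and mock, 0 to 1 for the difference between lines, and for siNT against mock 0 to 4 in LN229 and 0 to 2 in U251. The other 104 counts with all libraries stayed within 1.5 times the count reported. The share over both lines (0.256 points) kept its direction at 0.242 on gene reads (exact p = 0.0889), 0.256 with the replicate block (exact p = 0.0617) and 0.186 to 0.310 without one library (exact p = 0.00667 to 0.147). The share of siNT against mock in LN229 turned to -0.428 as a share of TPM and ranged from -0.0709 to 0.166 without one library, with -0.0019 without replicate 2 of mock.

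Leaving out a library also turned 49 of the 78 fitted log2 fold changes that were smaller than their SE and 12 of the 72 larger ones. The 12, and MT-ND6 between the lines, are given here without replicate 1 or 2 of the library named. For LN229 siNT, siXRN2 against siNT was 0.059 or -0.39 for MT-CO3, 0.053 or -0.44 for MT-ND1 and, on gene reads, 0.014 without replicate 1 for MT-RNR2; over both lines it was 0.0099 or -0.27 for MT-ND3. Against mock, siNT was -0.087 or 0.39 for MT-CO2, -0.0045 or 0.42 for MT-CO3 and -0.017 without replicate 1 for MT-RNR1. For U251 mock, siXRN2 against mock was 0.57 or -0.036 for MT-CO3, and siNT against mock was 0.99 or -0.028 for MT-ND6. LN229 against U251 was 0.60 or -0.086 for MT-ND5, 0.62 or -0.40 for MT-ND6, 0.0021 or -0.36 for MT-ATP6 and 0.091 or -0.56 for MT-ATP8. The cause was not tested. The differences in log CPM between replicate 1 and replicate 2 correlated between the groups of a line at -0.0381 to 0.0657. No pairing of samples by replicate number was thus seen. The mock libraries without replicate 1 of U251 give a lone sample, assumed to vary like the other groups.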
